A study of Mus musculus with 9 samples.

Results

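The 10 genes described here act in the actin cytoskeleton and are known targets of serum response factor (SRF), and they were followed across normal intestinal organoids and intestinal tumoroids. They were chosen by symbol as *Acta2*, *Tagln*, *Tagln2*, *Cnn2*, *Tpm1*, *Tpm2*, *Tpm4*, *Myl9*, *Flna* and *Crip2*, which are 10 of the 50600 genes counted. Of these 10 genes, 9 reached a TPM (reads divided by gene length, with every library brought to the same sum) of at least 1 in at least 1 of 9 libraries and were tested together with all 16208 genes that did so. RNA came from 3 groups of 3 libraries. WT organoids from the small intestine of mice labelled C57BL/6 were kept for 24 hr in medium of which one part was conditioned by other cultures (cM), on top of EGF, Noggin and R-spondin1. For these 6 libraries the titles and the treatment field name opposite media, so both groups are named by title: T-cM-titled organoids (medium conditioned by tumoroids) and WT-cM-titled organoids (medium conditioned by WT organoids). Should the treatment field be right instead, all directions between these groups turn round. The libraries of both organoid groups share replicate numbers 1 to 3 and deviated together by number, so they were treated as 3 pairs. The third group held untreated tumoroids, which are epithelial cultures from intestinal tumours of Apc1638N/+ mice labelled as of mixed strain. Although the study lists C57BL/6 among its strains, its methods describe all mice as of mixed background, which differs from the label of the organoids. They also give lines from at least 3 mice per experiment, but no label ties a library to a mouse, so the p-values measure the spread between these libraries. Tumoroids differ from organoids in genotype, labelled strain, tumour origin and conditioned medium. By the study's methods they also differ in R-spondin1 and in age, with tumours taken from older mice. These differences cannot be told apart here.

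SRF is a transcription factor that binds the CArG box, and its cofactors of the MRTF family are held in the cytoplasm by unpolymerised actin. When actin polymerises, the cofactors are released, enter the nucleus and switch on genes that encode actin itself and proteins that bind it. Some of these genes (*Tagln2*, *Cnn2*, *Tpm1*, *Tpm4*, *Flna*) are used by many epithelial cells, whereas *Acta2*, *Tagln*, *Myl9* and *Tpm2* are best known from smooth muscle and myofibroblasts. The intestinal epithelium uses this machinery to hold its shape, to migrate and to close wounds, and the question that the organoid groups address is how normal epithelium responds to factors released by tumour epithelium.

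Promoters are shown first because the CArG box is what defines SRF binding. RefSeq promoter windows (GRCm38.p6, 250 bases before to 50 after the start) were at hand for 9 of the 10 genes and not for *Tagln*. An exact CArG box on either strand was present in the windows of 2 genes, *Cnn2* and *Myl9*, and in 1.63% of all 32851 windows. The stretches that hold it, from -180 to -46 before the start, are given 5′ to 3′ on the gene's strand with the box in capitals.
Cnn2 (chr10:79988420-79988554, plus strand): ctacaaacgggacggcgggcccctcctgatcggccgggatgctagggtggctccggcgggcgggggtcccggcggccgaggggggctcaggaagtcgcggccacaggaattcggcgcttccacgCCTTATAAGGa
Myl9 (chr2:156775284-156775418, plus strand): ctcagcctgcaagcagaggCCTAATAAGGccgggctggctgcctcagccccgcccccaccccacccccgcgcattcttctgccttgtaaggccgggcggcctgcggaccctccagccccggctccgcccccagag
The box began at -56 in *Cnn2* and at -161 in *Myl9*. The values of both genes are given below.

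The second motif was the core of the TEAD factors, which carry the cofactor YAP and share targets with SRF. Its letters are CATTCC, and a match on the other strand reads as GGAATG. The core lay in the windows of 4 genes, *Acta2*, *Tagln2*, *Tpm1* and *Flna*, and in 14.7% of all windows, and neither motif overlapped the other. Of these, the *Flna* stretch from -180 to -46 and the bases around each other match are shown, again with the motif in capitals.
Flna (chrX:74246580-74246714, minus strand): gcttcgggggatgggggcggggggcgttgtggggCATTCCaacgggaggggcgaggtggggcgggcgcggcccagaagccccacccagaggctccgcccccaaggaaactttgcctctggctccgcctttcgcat
Acta2 (chr19:34255504-34255529, minus strand): gcagaacagaGGAATGcagtggaaga
Tagln2, first match (chr1:172500118-172500143, plus strand): ctttacggctCATTCCtgcctactga
Tagln2, second match (chr1:172500156-172500181, plus strand): agcgctccagCATTCCacgcggcggc
Tpm1 (chr9:67049254-67049279, minus strand): gctgtcctaaGGAATGcggtcgcccc
Positions are counted from the RefSeq start, which differs from the Gencode one. The stretches of *Acta2*, *Tagln2* and *Tpm1* lie within exons of the same genes in Gencode. Those of *Cnn2*, *Myl9* and *Flna* overlap no exon, but only those of *Cnn2* and *Myl9* lie before the Gencode start. The *Flna* stretch lies inside the Gencode gene, between exons. Neither motif was found in the windows of *Tpm2*, *Tpm4* and *Crip2*, which says only that these letters are not in these windows.

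Library totals over genes ran from 16541635 to 25170966 reads, and 3 reads corresponded to 0.103 to 0.204 CPM (read counts scaled to a common library size with TMM factors), the lowest level told from 0 by counting. All 8 epithelial markers had more than 3 reads in every library, and their summed level was 10590.5 to 11576 CPM in WT-cM-titled organoids, 10293 to 12779.9 CPM in T-cM-titled organoids and 6819.5 to 7656 CPM in tumoroids. Single markers moved apart in tumoroids: *Krt20* had 18, 84 and 224 reads there and 9978 to 16706 in organoids, *Vil1* was lower by a log2 fold change of -2.20 ± 0.18 and *Krt18* higher by 1.43 ± 0.24 against WT-cM-titled organoids (edgeR adjusted p = 2.04e-05 and 0.00125). Smooth muscle was close to absent, since its 6 markers summed to 1 read in each WT-cM-titled library, 1 to 3 reads in T-cM-titled and 4 to 7 reads in tumoroid libraries, with *Cnn1* and *Lmod1* at 0 in all 9. In the tumoroid comparisons the median log2 fold change of all tested genes was 0.15 (against WT-cM-titled) and 0.16 (against T-cM-titled) after TMM, and 0.52 and 0.51 on the scale of log2(TPM + 1), so changes of the size of this shift depend on the scaling.

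A gene was called when its adjusted p in edgeR's quasi-likelihood test (Benjamini-Hochberg over the 16208 genes) was under 0.05. Between the organoid groups, 2 of the 9 tested genes were higher in T-cM-titled organoids (*Flna* and *Cnn2*), 1 was lower (*Myl9*) and 6 were not called. Over all tested genes, 5.03% were called higher and 5.05% lower. In tumoroids, *Acta2*, *Crip2*, *Flna* and *Cnn2* were higher than in either organoid group and *Tpm2* was lower, while *Tagln2*, *Tpm1*, *Tpm4* and *Myl9* were not called. Against WT-cM-titled organoids 23.4% of all tested genes were called higher and 18.5% lower, and against T-cM-titled organoids these shares were 25.3% and 19.2%. All 4 higher genes also passed an absolute log2 fold change of 1, as did 18.2% of all tested genes against WT-cM-titled and 19.4% against T-cM-titled organoids, in the same direction. The median log2 fold change of the 9 genes was 0.21 between the organoid groups, beside 0 for all genes, 1.52 for tumoroids against WT-cM-titled and 1.26 against T-cM-titled organoids. The median of 1.52 is the value of *Myl9*, which was not called and was 0.81 without tumoroid 3. Both tumoroid comparisons use the same 3 tumoroid libraries. *Tpm2* entered the test through organoid libraries alone, with no tumoroid at 1 TPM, and *Acta2* through tumoroids and 1 T-cM-titled library, so that their part in these counts and medians is partly set by the filter. In bulk RNA, fewer cells of a type and less RNA per cell cannot be told apart.

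**Figure D1:**
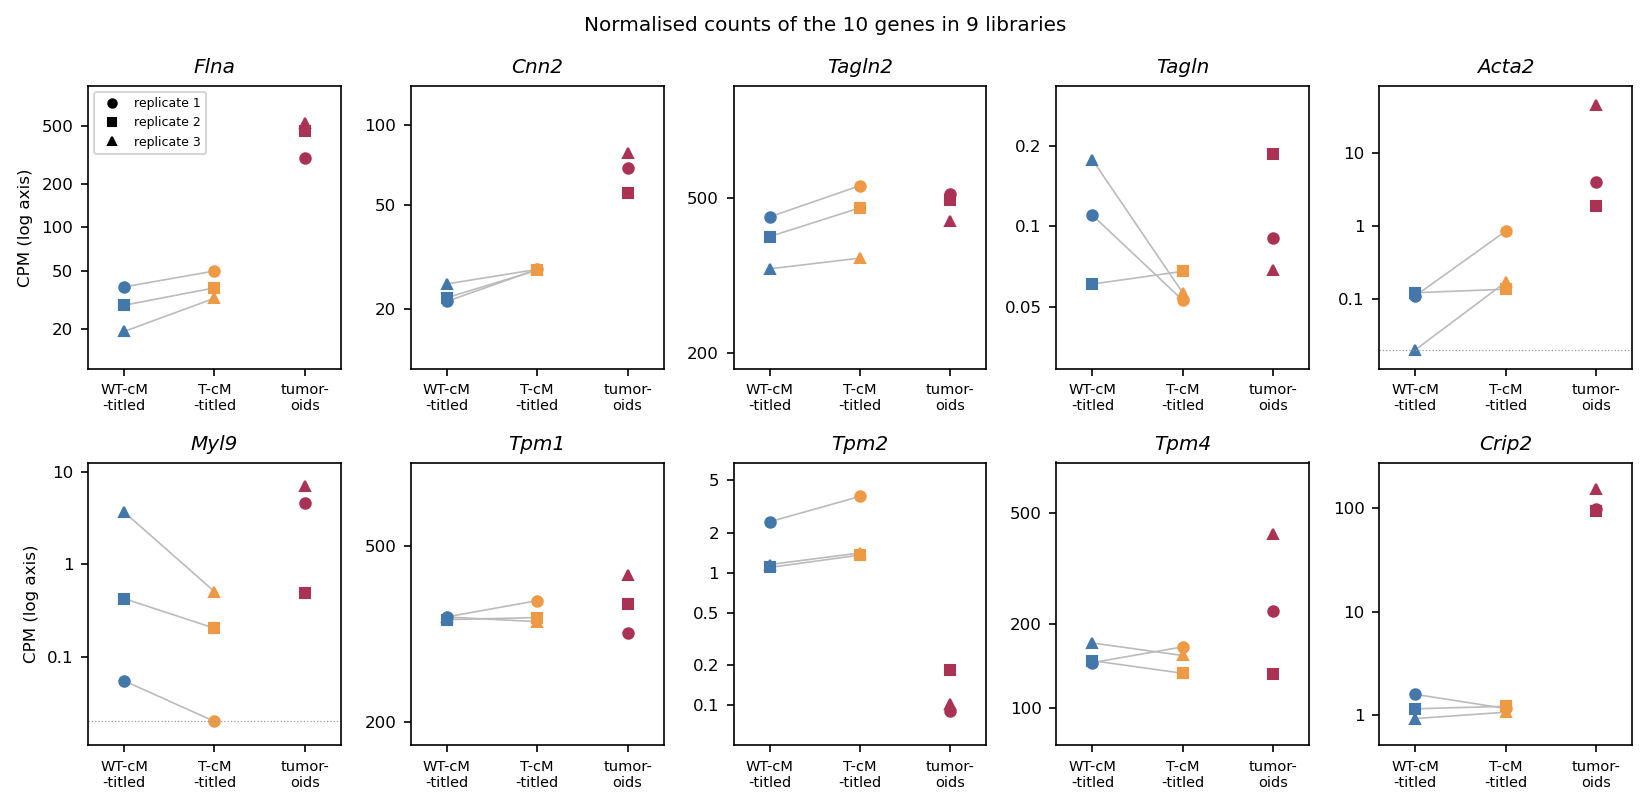
Normalised counts (CPM, log axes that differ between panels) of the 10 genes in each of 9 libraries, with blue for WT-cM-titled organoids, orange for T-cM-titled organoids and red for tumoroids. Symbols mark the replicate, grey lines join organoid libraries of the same replicate number, and a library with 0 reads is drawn on the dotted line; *Flna*, *Cnn2*, *Crip2* and *Acta2* are above both organoid groups in all 3 tumoroids and *Tpm2* is below.

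Of the proteins that link actin filaments to each other, *Flna* encodes filamin A, which cross-links actin into networks and ties it to the membrane (chrX:74223461-74249820, mm10, minus strand). *Flna* had 38.9, 29.1 and 19.2 CPM in WT-cM-titled organoids 1, 2 and 3, 50.0, 38.3 and 32.5 CPM in T-cM-titled organoids, and 301, 459 and 523 CPM in tumoroids. Each T-cM-titled library exceeded its own pair while the organoid groups overlapped. The lowest tumoroid was above every organoid library. The log2 fold change between organoid groups was 0.51 ± 0.10 (SE, 3 pairs; edgeR adjusted p = 0.00121), or 1.43-fold, with T-cM-titled organoids higher in 3 of 3 pairs. This call rested on the pairing, because without the replicate block the edgeR adjusted p was 0.929, and it was also lost without pair 2 (0.331) or pair 3 (0.0705). The log2 fold change stayed between 0.38 and 0.59 in all 11 alternatives, and without the block no gene of all tested was called, and without pair 2 only 1. *Flna* was higher in tumoroids by 3.88 ± 0.32 on the log2 scale than in WT-cM-titled organoids (edgeR adjusted p = 2.63e-05), which is 14.7-fold. Set against T-cM-titled organoids the value was 3.41 ± 0.32 (4.44e-05), or 10.6-fold.

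*Cnn2* encodes calponin 2, an actin-binding protein that is found outside muscle too (chr10:79988584-79996062, plus strand). Its levels were 21.4, 22.1 and 25.0 CPM in WT-cM-titled organoids, 28.3, 28.2 and 28.4 CPM in T-cM-titled organoids and 69.1, 55.1 and 78.4 CPM in tumoroids. The 3 groups were ordered without overlap. Between organoid groups the log2 fold change was 0.32 ± 0.10 (edgeR adjusted p = 0.0452, higher in 3 of 3 pairs), or 1.25-fold. The call was close to the threshold and was lost in 9 of 11 alternatives, in which the log2 fold change stayed between 0.27 and 0.38, and without the replicate block the adjusted p was 0.893. Tumoroids were higher by 1.56 ± 0.16 on the log2 scale against WT-cM-titled organoids (edgeR adjusted p = 7.08e-05) and by 1.26 ± 0.16 against T-cM-titled organoids (0.000226).

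*Tagln2* encodes transgelin 2, an actin-bundling protein of epithelial and blood cells (chr1:172500047-172507380, plus strand). *Tagln2* had 446, 397 and 329 CPM in WT-cM-titled organoids, 536, 471 and 350.0 CPM in T-cM-titled organoids and 512, 493 and 435 CPM in tumoroids. It was higher in the T-cM-titled library of every pair, by a log2 fold change of 0.21 ± 0.07 that missed the threshold (edgeR adjusted p = 0.0647). Pair 1 was highest and pair 3 lowest in both organoid groups. Tumoroids overlapped with both organoid groups (log2 fold change 0.30 ± 0.20, edgeR adjusted p = 0.258, and 0.08 ± 0.20, 0.755). On the log2(TPM + 1) scale, where the median of all genes is raised, the limma adjusted p values were 0.011 and 0.0409.

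*Tagln*, which encodes transgelin (SM22), a widely used marker of smooth muscle and myofibroblasts, was close to 0 (chr9:45929619-45936058, minus strand). It had 2, 1 and 4 reads in WT-cM-titled organoids, 1 read in each T-cM-titled library and 2, 5 and 2 reads in tumoroids. No library exceeded 0.35 TPM, and the gene was not tested. The overlaps of its exons with those of *Pcsk7* and *Gm48529* on the other strand sum to 67.9% of its exonic bases. A base that lies in both is counted for each. The strand setting of the counting is not given in the sources used here, so even these reads may not be its own.

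*Acta2* encodes smooth muscle α-actin, the actin of contractile cells (chr19:34241090-34255590, minus strand). *Acta2* was counted with 2, 2 and 0 reads in WT-cM-titled organoids, 16, 2 and 3 reads in T-cM-titled organoids and 89, 50 and 1340 reads in tumoroids. Every tumoroid was above every organoid library, and tumoroid 3 alone held most of the reads. Summed over the groups and set against depth, tumoroids had 271 times the level of WT-cM-titled organoids (95% exact interval 106 to 996, counting error only) and 46.4 times that of T-cM-titled organoids (30.2 to 75.1). The log2 fold changes were 7.81 ± 1.58 (edgeR adjusted p = 0.00328) and 5.43 ± 1.32 (0.00809). Without tumoroid 3 they fell to 5.22 (0.00224) and 2.86 (0.0176), while they were 7.15 (0.0177) without WT-cM-titled organoid 3 and 6.76 (0.0136) without T-cM-titled organoid 1, which held 16 of its group's 21 reads. With limma voom the second comparison was not called (adjusted p = 0.0643). Between organoid groups no order could be read, since 5 of the 6 libraries held 3 reads or fewer. Each T-cM-titled library was above its pair in CPM (in pair 2 with 2 reads in both), with 5.85 times the level over the groups (95% exact interval 1.97 to 23.4) and a log2 fold change of 2.27 ± 0.90, but the edgeR adjusted p was 0.121. *Tagln* and each of the 6 smooth muscle markers stayed at 5 reads or fewer in every library.

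**Figure D2:**
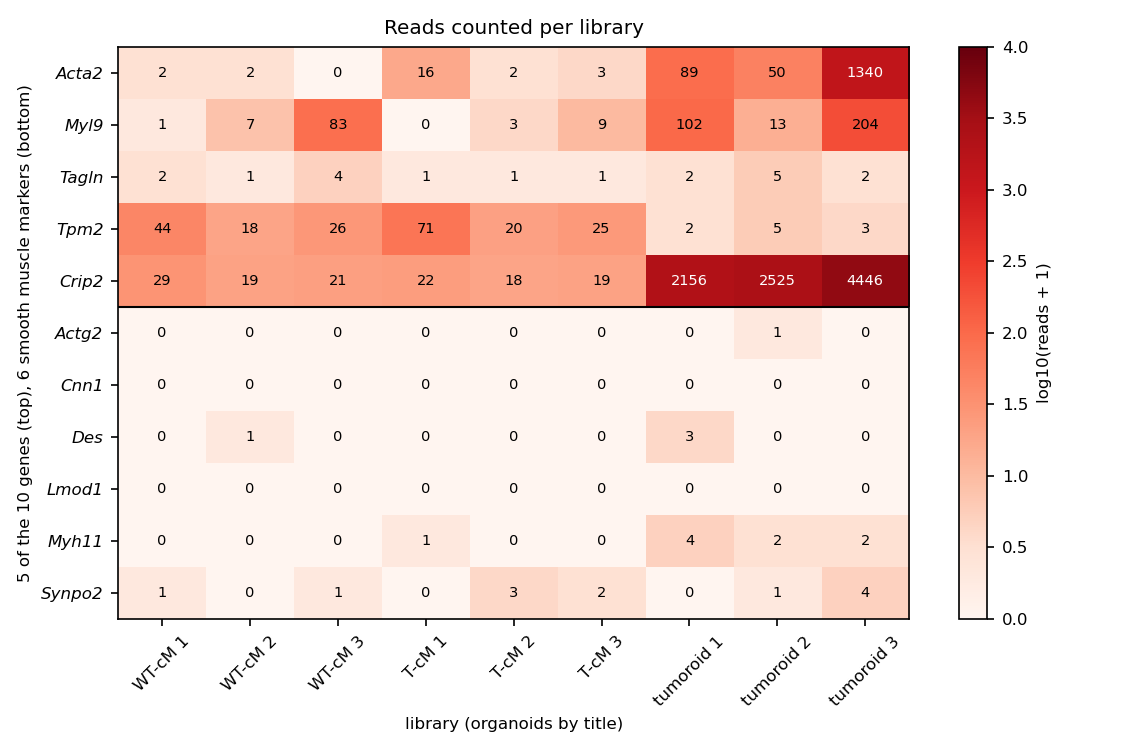
Reads counted in each of 9 libraries for 5 of the 10 genes (upper rows) and for 6 smooth muscle markers (lower rows), with the count printed in each cell and the colour on a scale of log10(reads + 1). *Acta2* and *Crip2* have at least 50 reads in every tumoroid, while *Tagln* stays at 5 reads or fewer and the smooth muscle markers at 4 or fewer.

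Tumoroid 3 was highest for 7 of the 10 genes, and the share of all genes highest there was not computed. It also held more reads of some genes of other cell types and fewer of others. *S100b*, a glial gene, had 6 reads there, beside 35 and 32 in tumoroids 1 and 2. *Cdh5* and *Tek*, endothelial genes, had 54 and 53 reads in tumoroid 3. In tumoroids 1 and 2, *Cdh5* had 1 read each and *Tek* 4 and 7 reads. The 5 endothelial markers summed to 0.453 to 3.85 CPM in tumoroids, beside 1.16 to 1.37 and 1.02 to 1.59 CPM in WT-cM-titled and T-cM-titled organoids, with *Kdr* and *Emcn* at 0 everywhere and *Pecam1* at 5 reads in each tumoroid and 6 to 20 in organoids. Of 10 fibroblast markers, 3 to 4 had more than 3 reads in tumoroids and 2 in organoids. Their sum was 0.855 to 2.82 CPM in tumoroids and 7.31 to 16.3 and 5.09 to 7.19 CPM in WT-cM-titled and T-cM-titled organoids, where most of it was *Prrx1* (65 to 340 reads in organoids, at most 1 in tumoroids). Without *Prrx1*, an alternative chosen after seeing the data, the sum was 0.855 to 2.78 CPM in tumoroids, 0.714 to 1.28 CPM in WT-cM-titled and 0.676 to 0.952 CPM in T-cM-titled organoids. *Col1a1* had 7, 7 and 12 reads and *Postn* 42, 6 and 9 reads in tumoroids, against at most 2 and 3 reads in organoids, with *Pdgfrb* at 52 reads in tumoroid 3 and *Col3a1* and *Lum* at 0 in all libraries. Immune markers summed to 7.48 to 26.7 CPM in tumoroids and to at most 4.85 CPM in organoids, with *Cd68* at 596 reads in tumoroid 3, *Csf1r* at 550 reads in tumoroid 2 and *Cd3e* at 0. *Ptprc*, which marks all leukocytes, had 4, 19 and 6 reads in tumoroids and 0 to 16 in organoids, and *Adgre1*, a macrophage gene, had 0 in tumoroids and at most 2 in organoids. The part of these genes in the level of *Acta2* was not tested.

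*Myl9* encodes a regulatory light chain of myosin II, whose phosphorylation switches on contraction (chr2:156775420-156781658, plus strand). *Myl9* had 1, 7 and 83 reads in WT-cM-titled organoids, 0, 3 and 9 reads in T-cM-titled organoids and 102, 13 and 204 reads in tumoroids. The T-cM-titled library was lower in every pair, although the groups overlapped. The log2 fold change was -2.43 ± 0.52 (edgeR adjusted p = 0.00237). Of the 91 reads in WT-cM-titled organoids 83 came from replicate 3, and without that pair the value was -1.24 with an adjusted p of 0.796. The call was also lost without pair 2 (0.226) and without the replicate block (0.929), and DESeq2 gave no adjusted p. In the fibroblast list, *Prrx1* had 120, 226 and 340 reads in WT-cM-titled and 118, 65 and 87 in T-cM-titled organoids (log2 fold change -1.11 ± 0.20, edgeR adjusted p = 0.000302). In pair 1 it was nearly level, at 6.60 and 6.24 CPM. *Pdgfrb* had 10, 19 and 24 reads and then 12, 8 and 8. The rest of that list stayed at 3 reads or fewer in every organoid library. *S100b* of the glial list fell from 46, 42 and 97 reads to 42, 19 and 29 (-0.84 ± 0.25, 0.0318). The 4 glial markers summed to 2.74 to 4.74 CPM in WT-cM-titled organoids, 1.49 to 2.38 CPM in T-cM-titled organoids and 1.03 to 3.09 CPM in tumoroids, with *Sox10* at 0. The part of either list in the result was not tested. For tumoroids against WT-cM-titled and T-cM-titled organoids, *Myl9* gave 1.52 ± 1.28 (edgeR adjusted p = 0.373) and 4.07 ± 1.51 (0.0515), neither of them called. Without replicate 3 of the organoid group these values were 4.06 (0.0658) and 5.35 (0.0717), and without tumoroid 3 they were 0.81 and 3.37. The second value was 3.46 without T-cM-titled organoid 1 and passed the threshold in 8 of 15 alternatives.

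Tropomyosins lie along the actin filament and decide which myosins and severing proteins reach it. *Tpm1* (chr9:67022590-67049406, minus strand) had 346, 341 and 345 CPM in WT-cM-titled organoids, 376, 344 and 337 CPM in T-cM-titled organoids and 318, 370.2 and 430.2 CPM in tumoroids. The groups overlapped, and no comparison was called (log2 fold change 0.05 ± 0.07, 0.12 ± 0.15 and 0.08 ± 0.15; edgeR adjusted p = 0.786, 0.567 and 0.692). On the log2(TPM + 1) scale, with its raised median, *Tpm1* was called higher in tumoroids, by 0.64 (limma adjusted p = 0.00997) and 0.58 (0.0152). *Tpm4* (chr8:72134975-72153142, plus strand) had 146, 148 and 171 CPM in WT-cM-titled organoids, 166, 133 and 154 CPM in T-cM-titled organoids and 222, 133 and 419 CPM in tumoroids. In CPM, tumoroids 1 and 3 were above all organoid libraries and tumoroid 2 was level with the lowest of them (133.2 and 133.5). In TPM every tumoroid was above every organoid library. The log2 fold changes of 0.74 ± 0.34 and 0.77 ± 0.34 were not called (edgeR adjusted p = 0.108 and 0.0904), and they were 1.04 (0.00921) and 1.07 (0.00756) without tumoroid 2 but 0.18 and 0.21 without tumoroid 3. On the log2(TPM + 1) scale, with its raised median, the values were 1.11 and 1.13 and both were called. Between the organoid groups *Tpm4* gave -0.02 ± 0.08 (0.929). Of the 100-base stretches of *Tpm4* transcripts, 7.37% also occur in *Gm7809*, and 6.08% of its exonic bases overlap *Gm26586* on the other strand, so a part of its reads is of uncertain origin.

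*Tpm2* was the one gene of the set called lower in tumoroids, in a test that it entered only through organoid libraries (chr4:43514711-43523765, minus strand). It had 44, 18 and 26 reads in WT-cM-titled organoids, 71, 20 and 25 reads in T-cM-titled organoids and 2, 5 and 3 reads in tumoroids. No tumoroid reached the level of any organoid library. Set against depth, WT-cM-titled and T-cM-titled organoids had 12 times (95% exact interval 6.23 to 25.9) and 17.6 times (9.25 to 37.7) the level of tumoroids. The log2 fold changes were -3.55 ± 0.64 (edgeR adjusted p = 0.00183) and -4.03 ± 0.65 (0.000889), the second being -3.38 without T-cM-titled organoid 1. Between organoid groups T-cM-titled libraries were higher in 3 of 3 pairs by 0.46 ± 0.27, which was not called (0.336).

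*Crip2* encodes a small LIM-domain protein that is best known from heart and smooth muscle (chr12:113140236-113145506, plus strand). *Crip2* had 29, 19 and 21 reads in WT-cM-titled organoids, 22, 18 and 19 reads in T-cM-titled organoids, and 2156, 2525 and 4446 reads in tumoroids. The organoid groups lay within the same narrow range (log2 fold change -0.07 ± 0.33, edgeR adjusted p = 0.963), far below the tumoroids. The mean was 1.23 ± 0.338, 1.15 ± 0.0759 and 115 ± 32.9 CPM (SD, n = 3 each). Tumoroids were higher by 6.55 ± 0.29 (edgeR adjusted p = 1.89e-06) and 6.63 ± 0.30 on the log2 scale (1.98e-06), or 93.7-fold and 99.3-fold, and this was the smallest adjusted p of the 10 genes in both comparisons. It was called in all 15 alternatives of each comparison, as were *Flna* and *Cnn2*.

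**Figure D3:**
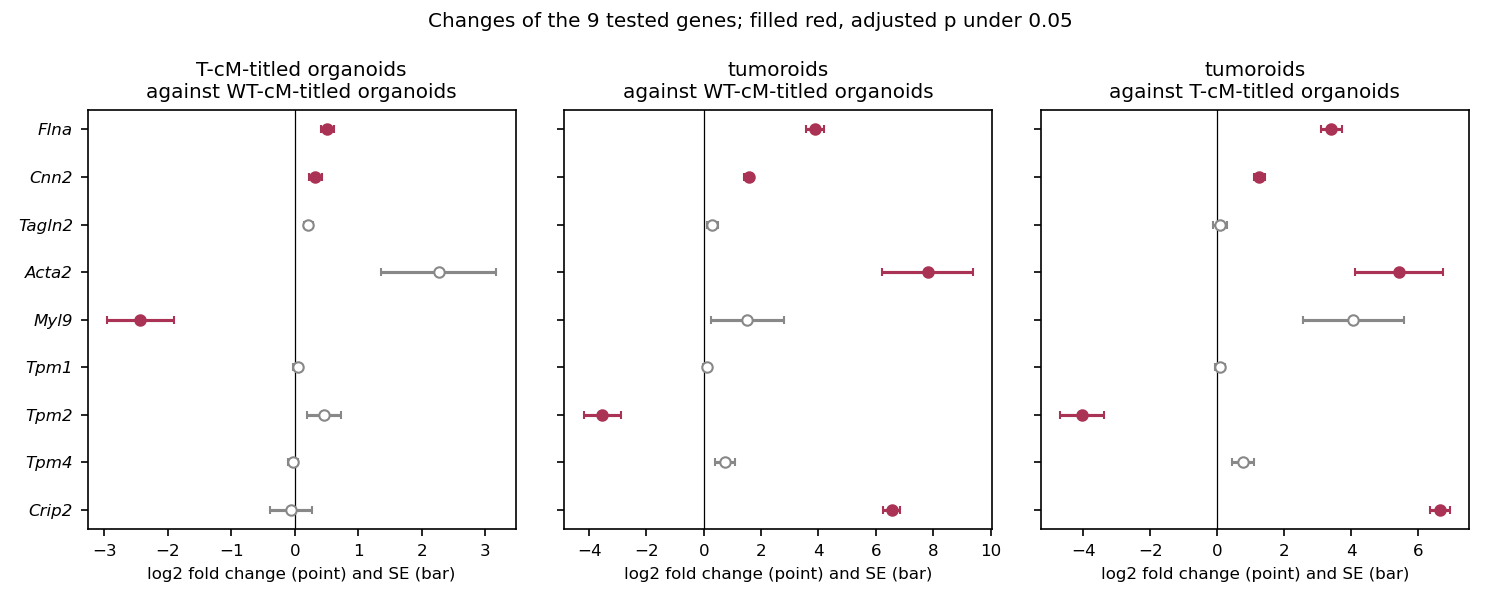
Log2 fold changes of the 9 tested genes in 3 comparisons (points) with their standard errors (bars), filled red where the adjusted p was under 0.05. *Flna* and *Cnn2* are right of 0 in all 3 panels, at 0.51 and 0.32 in the first and at 3.88 and 1.56 in the second, while *Acta2* and *Myl9* have the widest bars. The x axes differ between panels.

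The genes of 6 families were also set against the other members of their family, as a share of the summed TPM in each library, which needs no scaling between libraries. These shares are a description with no test, since 3 libraries against 3 cannot reach p under 0.05 in a permutation test.

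Among the cysteine-rich intestinal proteins, *Crip2* held 0.357% ± 0.212 of the family in WT-cM-titled organoids, 0.334% ± 0.0858 in T-cM-titled organoids and 39.8% ± 1.41 in tumoroids (SD, n = 3 each). *Crip1*, an abundant protein of normal intestine, held the rest, at 99.6% ± 0.212, 99.7% ± 0.102 and 60.2% ± 1.41. The level of *Crip1* fell in tumoroids as well, by a log2 fold change of -1.16 ± 0.27 (edgeR adjusted p = 0.00707) and -1.05 ± 0.27 (0.0107), though on the log2(TPM + 1) scale its fall was not called (0.0618 and 0.0891).

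In the calponin family *Cnn2* stayed at 45.7% ± 15.4, 46.7% ± 8.11 and 44.9% ± 6.72 in WT-cM-titled organoids, T-cM-titled organoids and tumoroids. *Cnn3*, which held the rest, was higher in tumoroids too (log2 fold change 1.46 ± 0.46, edgeR adjusted p = 0.0283, and 1.36 ± 0.46, 0.0352). Without tumoroid 1 or 3 these calls were lost (adjusted p = 0.0838 and 0.0566, and 0.103 and 0.0702), as they were without replicate 2 or 3 of the organoid group, while without WT-cM-titled organoid 1 the first value was 2.13. *Cnn1*, the calponin of smooth muscle, was at 0. *Tagln2* was at least 99.9% of transgelin TPM in every library, beside *Tagln* and *Tagln3*. *Tpm4* was the largest tropomyosin in all 3 groups, at 39.5% ± 2.82, 38.0% ± 2.51 and 50.2% ± 13.1, and *Tpm2* was at 0.300% ± 0.147, 0.401% ± 0.215 and 0.0221% ± 0.0145. *Tpm1* had 29.8% ± 0.477, 30.2% ± 0.984 and 27.1% ± 6.49, and *Tpm3* 30.4% ± 2.25, 31.4% ± 2.07 and 22.7% ± 6.74.

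Even where *Acta2* was highest it stayed a minor actin. It made up 0.00361% ± 0.00313 and 0.0171% ± 0.0178 of actin TPM in WT-cM-titled and T-cM-titled organoids and 0.124% to 3.21% in tumoroids, of which the top value is tumoroid 3. *Actb*, cytoplasmic β-actin, accounted for 67.9% ± 4.99, 70.4% ± 3.74 and 58.5% ± 2.86, and *Actg1* for 29.0% ± 4.00, 25.9% ± 2.74 and 32.5% ± 6.52. *Acta1*, the actin of skeletal muscle, was read at 3.08% ± 0.991, 3.73% ± 1.06 and 7.82% ± 5.23, and *Actc1* was listed at 0. *Myl9* likewise made up 0.241% ± 0.340, 0.0415% ± 0.0449 and 0.845% ± 0.663 of the light chains counted, next to *Myl12b* (45.9% ± 1.87, 46.5% ± 2.59 and 50.9% ± 2.31) and *Myl6* (42.5% ± 1.54, 42.4% ± 2.09 and 33.2% ± 3.41). Some of these genes share sequence, which makes their split uncertain: 29.9% of the 100-base stretches of *Actg1* occur in other genes such as *Actg-ps1*, 24.0% of those of *Myl12b* occur in *Myl12a* or a second *Myl12b* entry, and 15.8% of those of *Tpm3* in *Tpm3-rs7*. For *Acta2*, *Myl9*, *Flna*, *Cnn2*, *Crip2*, *Tpm1*, *Tpm2* and *Tagln2* no stretch was shared.

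**Figure D4:**
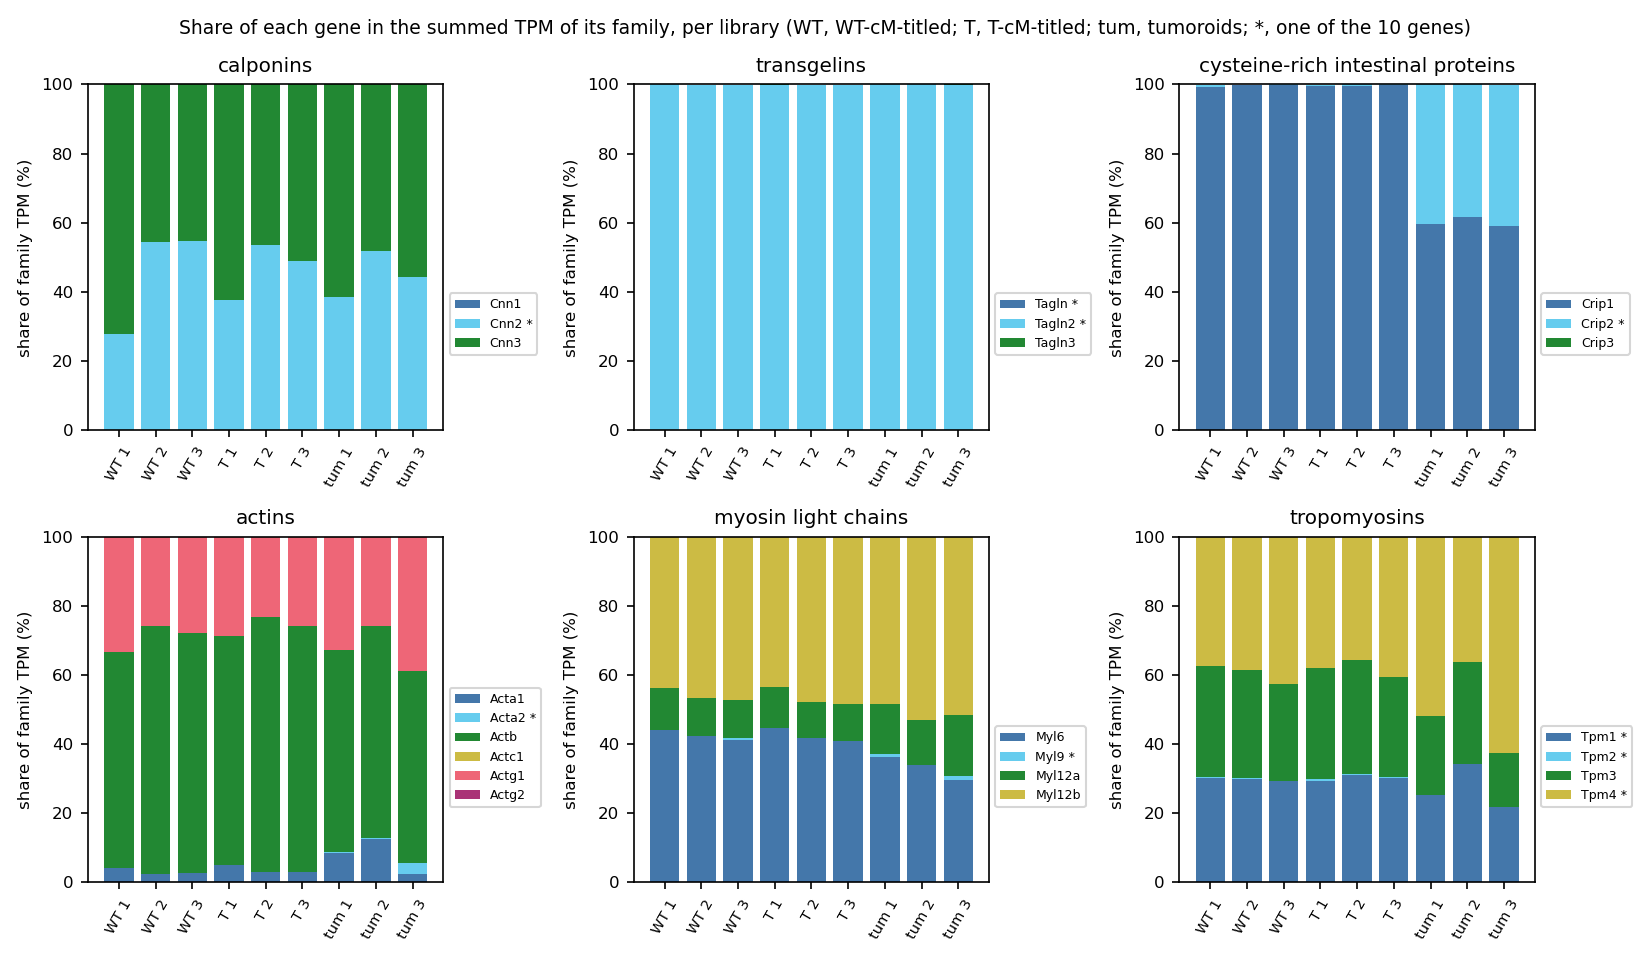
Share (%) of each gene in the summed TPM of its family, stacked to 100% in each of 9 libraries, for 6 families, with an asterisk on the genes of the set. *Crip2* takes 38.3% to 40.9% of its family in tumoroids against at most 0.598% in organoids, while *Tagln2* is at least 99.9% of the transgelins in every library.

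The wider actin machinery was read from 3 lists of 47 genes (15 paralogues, 24 other cytoskeletal targets of SRF and 8 genes of SRF and its cofactors), of which 39 were tested. Between organoid groups 6 were higher in T-cM-titled organoids, 2 were lower and 31 were not called, beside 5.03% higher and 5.05% lower of all tested genes. The median log2 fold change was 0.10, beside 0 for all tested genes. The higher genes were *Cald1* (caldesmon, an actin-binding brake on myosin, 1.29 ± 0.25), *Gsn* (gelsolin, which severs filaments, 0.50 ± 0.08), *Pfn1* (profilin, which feeds actin monomers, 0.40 ± 0.08), *Acta1* (0.33 ± 0.09), *Elk4* (0.31 ± 0.10) and *Myh14* (a non-muscle myosin, 0.28 ± 0.07), each in 3 of 3 pairs, with edgeR adjusted p values of 5.07e-05 (*Gsn*) to 0.0486 (*Elk4*). The lower genes were *Csrp1* (-0.45 ± 0.12) and *Fhl2* (-0.40 ± 0.10), both LIM-domain targets of SRF, each in 3 of 3 pairs. None of these 8 calls held without pair 2, where 1 gene of all 16208 was called and the 8 log2 fold changes kept their signs (*Cald1* 1.23, *Gsn* 0.49, *Csrp1* -0.34). Without the replicate block none of the 39 genes was called, as was true of all genes (smallest edgeR adjusted p 0.601, 904 of 16208 genes at an unadjusted p under 0.05, where the blocked fit had 3568).

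Tumoroids had 10 of the 39 genes higher and 7 lower when set against WT-cM-titled organoids, with a median of 0.23 beside 0.15 for all tested genes. *Myh10*, *Cald1*, *Flnc* and *Elk3* reached 1 TPM in tumoroids alone, so they entered the test only through the group in which they are high, and their part in these counts and medians is set by the filter. On the log2(TPM + 1) scale the split was 21 higher and 1 lower, and over all genes 6834 and 1714 in place of 3792 and 3004. Against T-cM-titled organoids 11 were higher and 8 lower, with a median of 0.16 beside 0.16, and on log2(TPM + 1) 20 were higher and 2 lower, beside 6790 and 1762 of all genes in place of 4104 and 3110. Among the other cytoskeletal targets 5 were higher than in WT-cM-titled organoids, *Myh10* (non-muscle myosin IIB, 5.02 ± 0.84), *Cald1* (3.87 ± 0.78), *Csrp1* (2.5 ± 0.35), *Fhl3* (1.77 ± 0.48) and *Actn1* (α-actinin, 1.40 ± 0.31). *Cald1* had 31, 26 and 26 reads in WT-cM-titled organoids, 52, 61 and 69 in T-cM-titled organoids and 104, 289 and 1433 in tumoroids, and without tumoroid 3 its value was 2.38 (edgeR adjusted p = 0.00148) against WT-cM-titled organoids, and 1.09 in place of 2.59 against T-cM-titled organoids, where the call was lost (0.0501). That call was also lost without T-cM-titled organoid 1 (0.0542). Without tumoroid 3, *Fhl3* gave 1.02 and *Myh10* 4.31, *Fhl3* was not called without WT-cM-titled organoid 2 (0.0559), and *Myh10* gave 5.88 without WT-cM-titled organoid 3. The 4 lower ones were *Lima1* (-1.42 ± 0.22), *Actn4* (-0.79 ± 0.16), *Zyx* (-0.49 ± 0.16) and *Wdr1* (-0.39 ± 0.13), of which *Zyx* and *Wdr1* turned positive on the log2(TPM + 1) scale (0.05 and 0.14) and *Actn4* was no longer called (0.151). The call of *Zyx* was lost without tumoroid 2 or WT-cM-titled organoid 2 or 3 (0.0776, 0.0547 and 0.115), and that of *Wdr1* without tumoroid 3 or any 1 WT-cM-titled library (0.0525 to 0.108). *Flnc*, a filamin of muscle, with 4, 2 and 3 reads in WT-cM-titled organoids, 10, 10 and 8 in T-cM-titled organoids and 94, 813 and 375 in tumoroids, had 104 times (95% exact interval 54.8 to 229) and 30.1 times (20.8 to 45.5) the organoid level in tumoroids. Tumoroid 2 held 813 of these reads, and without it the log2 fold changes of *Flnc* were 5.70 in place of 6.59 and 3.94 in place of 4.83. *Actb* was lower in tumoroids by -0.80 ± 0.19 (edgeR adjusted p = 0.00796) and *Myl6* by -0.56 ± 0.14 (0.0106), and neither fall was called on the log2(TPM + 1) scale (0.210 and 0.881).

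**Figure D5:**
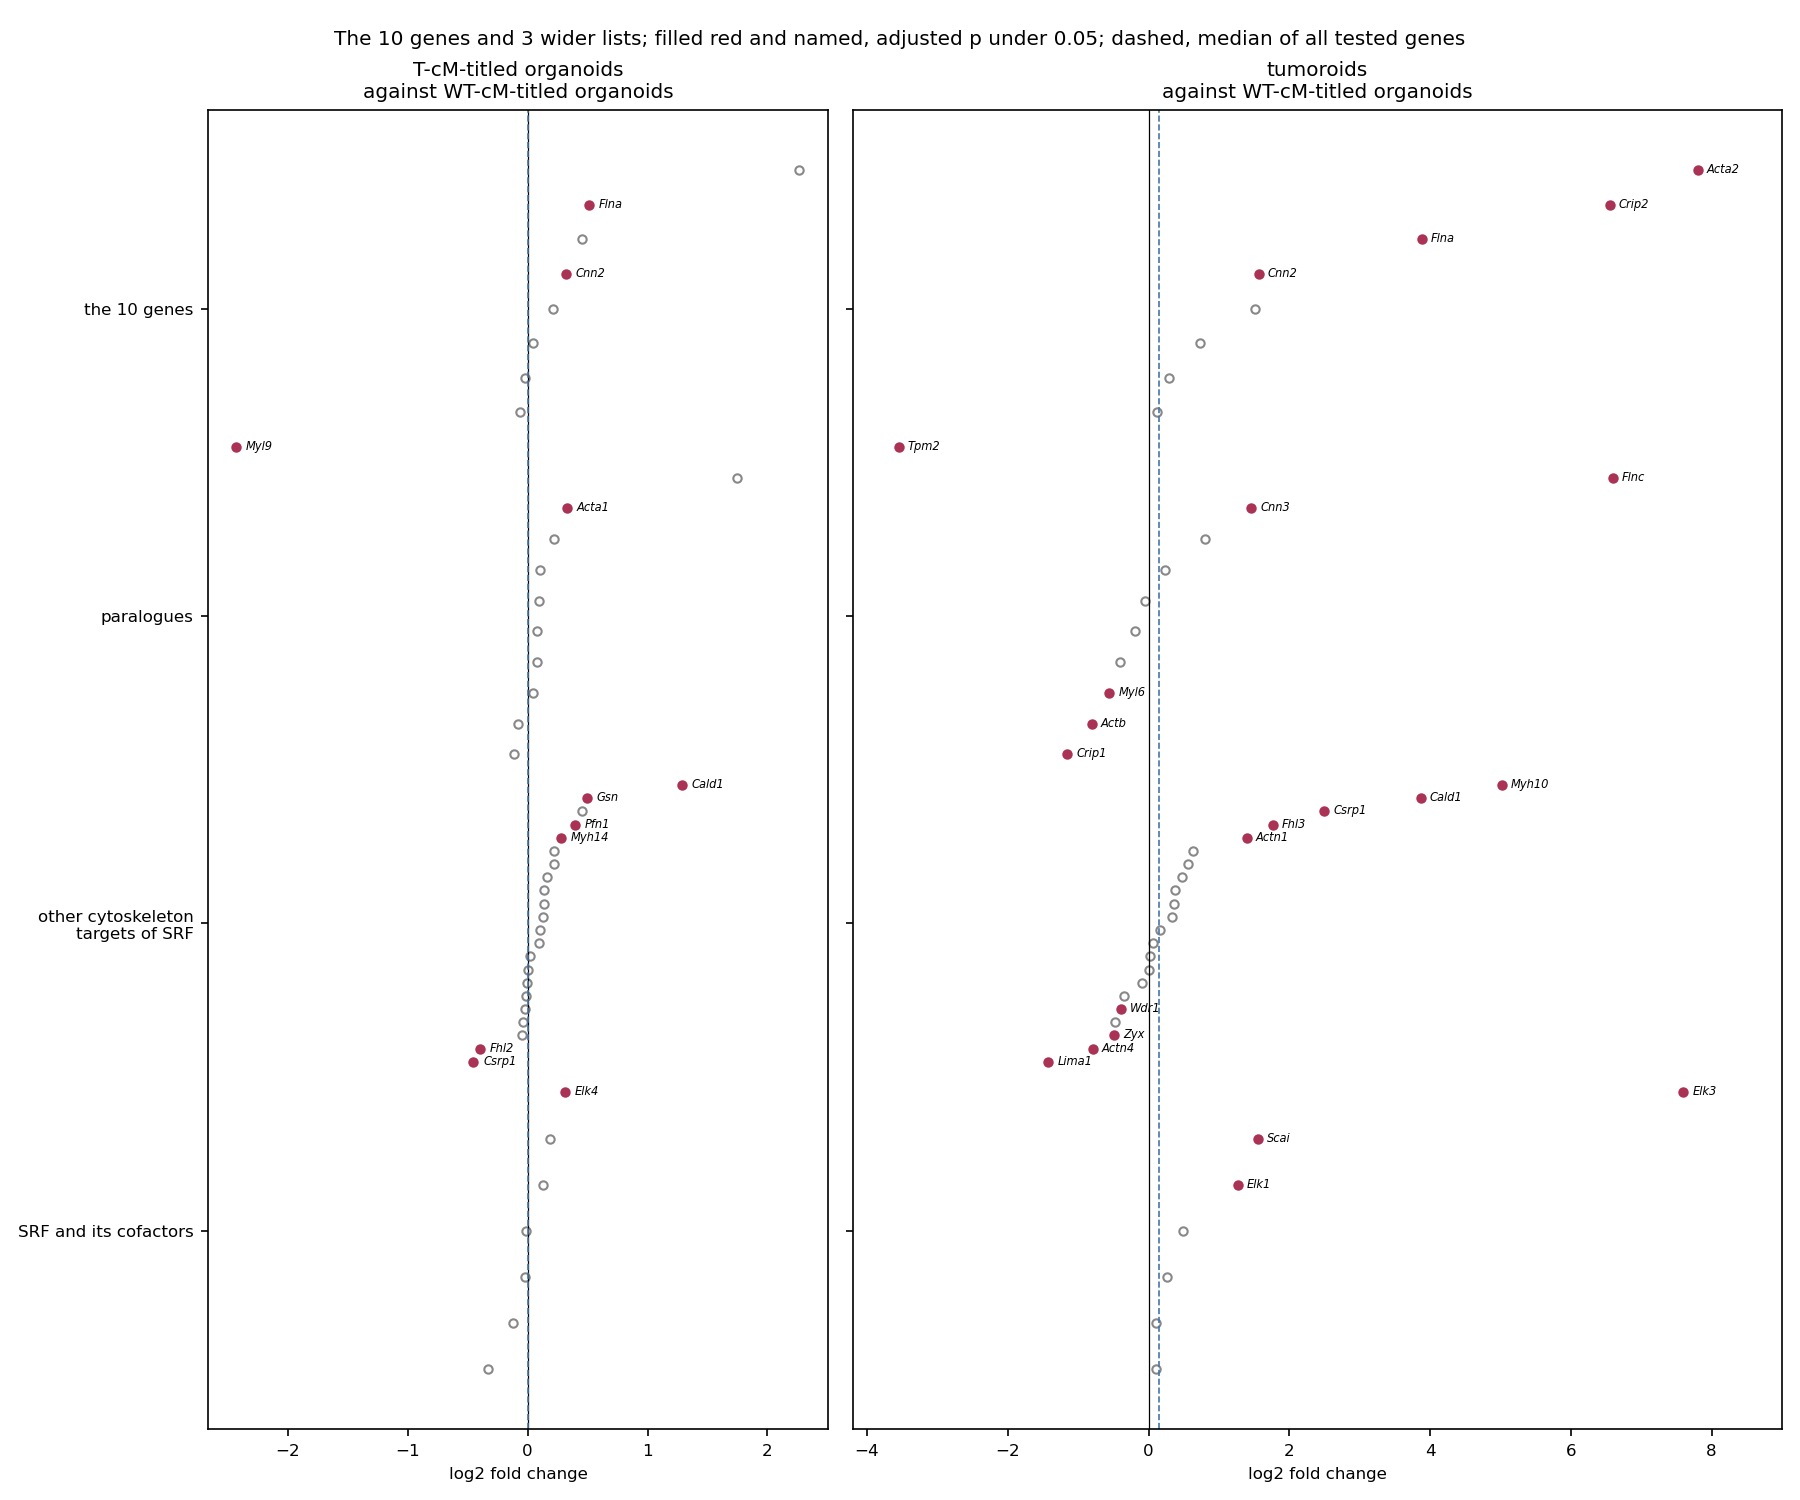
Log2 fold changes of the 9 tested genes of the set and of 39 genes of the 3 wider lists, between organoid groups (left) and for tumoroids against WT-cM-titled organoids (right). Each point is a gene, filled red and named where the adjusted p was under 0.05, and the dashed line is the median of all 16208 tested genes (0 and 0.15); called genes lie on both sides of it in both panels.

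*Srf* itself had 42.6, 37.3 and 40.3 CPM in WT-cM-titled organoids, 39.7, 40.8 and 37.1 CPM in T-cM-titled organoids and 47.1, 39.4 and 42.9 CPM in tumoroids. In CPM the groups overlapped, with log2 fold changes of -0.02 ± 0.10, 0.11 ± 0.13 and 0.14 ± 0.13 (edgeR adjusted p = 0.957, 0.558 and 0.429). In TPM, *Srf* was at 35.9 to 37.7 in tumoroids, above the 21.8 to 27.4 and 21.6 to 24.95 of WT-cM-titled and T-cM-titled organoids, and on the log2(TPM + 1) scale it was called higher by 0.62 (limma adjusted p = 0.00562) and 0.63 (0.00518), beside a median of 0.52 and 0.51 for all genes. Its cofactor *Mkl1* (MRTF-A) was not called either (0.19 ± 0.10, 0.26 ± 0.15 and 0.09 ± 0.15; 0.309, 0.205 and 0.682), but on the log2(TPM + 1) scale it was higher in tumoroids by 0.74 (limma adjusted p = 0.00757) and 0.56 (0.0268). *Mkl2* (MRTF-B) gave -0.01 ± 0.10, 0.49 ± 0.19 and 0.53 ± 0.19 and was called in the third comparison alone (0.0433), with both tumoroid comparisons called on the log2(TPM + 1) scale (0.00759 and 0.00734). The call in CPM was lost with limma voom (0.0524), with RLE factors (0.0520) and with a replicate block (0.0508), and without tumoroid 2 or 3 or any 1 T-cM-titled library (0.0542 to 0.132). *Myocd*, the muscle cofactor, was at 0 in all 9 libraries.

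The ternary complex factors, which bind SRF in place of the MRTFs, include genes that differed. *Elk3* had 3, 5 and 4 reads in WT-cM-titled organoids, 5, 1 and 4 reads in T-cM-titled organoids and 586, 903 and 1931 reads in tumoroids. All tumoroids were far above all organoids, by 209 times (95% exact interval 119 to 405) and 225 times (122 to 470) when set against depth, with edgeR adjusted p values of 1.03e-05 and 1.04e-05 in a test that the gene entered through tumoroids alone. *Elk1* was higher in tumoroids by 1.27 ± 0.23 (0.00192) and 1.15 ± 0.23 (0.00313), and *Scai*, an inhibitor of MRTF, by 1.56 ± 0.39 (0.0100) and 1.91 ± 0.40 (0.00366), or 0.97 and 1.31 without tumoroid 2. *Elk4* was not called in tumoroids (0.10 ± 0.20 and -0.20 ± 0.20).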

How the data were processed

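Polyadenylated RNA was sequenced with a stranded kit as paired reads of 100 bases. The authors aligned reads to mm10 with STAR (per the labels) and deposited 2 tables, 1 of raw read counts without normalisation and 1 of TPM, for which the authors took gene length into account. The tool and strand setting of the counting are not given in the sources used here. Groups come from library titles.

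Counts were normalised by TMM and tested with edgeR 4.0.16 (quasi-likelihood, legacy form, R 4.3.3) over the genes that passed a TPM of 1 in any library. Organoids (6 libraries) were fitted with replicate number as a block (replicate block), since same-numbered libraries deviated together (r = 0.546, 0.338 and 0.547), and tumoroid comparisons used 9 libraries without it. Calls needed an adjusted p under 0.05 (Benjamini-Hochberg). SE is the log2 fold change over the root of F. Within groups, libraries differed by more than sampling noise. The edgeR fits were tried on simulated counts with no pair effect and with changes only in well-counted genes. That trial says nothing about the replicate block or about genes with few reads. Alternatives were limma voom 3.58.1, limma on log2(TPM + 1), DESeq2 1.42.0, the newer edgeR form, RLE factors, other filters, the block and each library left out. Gene positions are from Gencode on mm10, and promoters from RefSeq (GRCm38.p6). Intervals cover counting error only.

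The 10 genes, all named, and the lists, from which cofactors, paralogues and up to 6 called genes per direction were named, were chosen with earlier results of these data known. Some genes of these lists are not reported here.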

Additional observations from a re-analysis of the deposited data

How the results depend on the processing

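Between organoid groups, the calls depended on the fit. The 3 calls among the 10 genes became 1 with DESeq2, 1 with filterByExpr, 0 with limma on log2(TPM + 1), 0 with no replicate block, 1 with an absolute log2 fold change above 1, and 0 to 2 when a pair was left out (0 without pair 2 and without pair 3). The 8 calls in the wider lists became 4 with DESeq2, 3 with limma voom, 5 with the newer edgeR form, 0 on log2(TPM + 1), 0 with no replicate block, 1 with the fold threshold, and 0 to 9 without a pair (0 without pair 2, 3 without pair 3). Over all genes 1634 calls became 783, 577, 1047, 0, 0 and 179 in the same order, and 1 to 2872 without a pair, with 1 without pair 2, 533 without pair 3 and 2872 without pair 1. At 0 calls, 2690 genes had an unadjusted p under 0.05 on log2(TPM + 1). In tumoroids, the 5 calls became 8 (WT-cM-titled) and 9 (T-cM-titled) on log2(TPM + 1), where the median of all genes is raised, and other alternatives gave 5 to 6 and 4 to 7. A replicate block over 9 libraries left 5 calls against WT-cM-titled organoids and gave 6 against T-cM-titled, where *Myl9* joined (log2 4.27). The 19 calls in the wider lists against T-cM-titled organoids became 12 with the fold threshold.

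Among the 10 genes, directions turned in log2 fold changes near 0 that were not called, all when a library or pair was left out: between organoid groups *Tpm4* (-0.1373 to 0.0237) and *Crip2* (-0.2059 to 0.1544), for tumoroids with WT-cM-titled organoids *Tpm1* (-0.0104 to 0.2188), and for tumoroids with T-cM-titled organoids *Tagln2* (-0.0703 to 0.2251) and *Tpm1* (-0.0515 to 0.1829). The causes were not tested. Depth limits *Acta2*, *Myl9*, *Tpm2* and *Tagln*, which had few reads in at least 1 group.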
